A study of Rattus norvegicus with 3 samples.

Results

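Pericytes and vascular smooth muscle cells, together called mural cells, wrap the outside of blood vessels. The 9 genes described here mark these cells: Pdgfrb, Acta2, Tagln, Myh11, Rgs5, Kcnj8, Abcc9, Des and Vtn. The rule that chose them is a list of names and has no threshold on a measured value, although the list was drawn up with earlier results of these data known. Each symbol matched 1 of the 30957 genes measured. The samples were motor cortex of 3 male Sprague-Dawley rats without treatment, numbered 32, 39 and 68, which the labels put in 1 normal group at a time of 8 weeks, not saying from when that is counted. There was 1 mRNA library per animal, so animal, dissection and library preparation cannot be told apart, and no second group was analysed here. Levels are FPKM, the fragments assigned to a gene divided by its length and by the library size, so that different genes can be compared. The depth worked out from short genes was 16550241, 15460924 and 17670986 fragments in animals 32, 39 and 68, and a level of 1 FPKM rested on 15.5 to 17.7 fragments per kilobase of gene.

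Pericytes sit on capillaries, share a basement membrane with the endothelium and are recruited to it by platelet-derived growth factor from endothelial cells acting on the receptor PDGFRB. Smooth muscle cells ring arteries and arterioles, and set their width by contraction of alpha smooth muscle actin (Acta2) and smooth muscle myosin (Myh11), with transgelin (Tagln) bound to the actin and desmin (Des) as the intermediate filament. In the brain, both cell types adjust local blood flow, and their potassium channel, made of the pore Kir6.1 (Kcnj8) and the regulatory subunit SUR2 (Abcc9), couples the cells' energy state to their membrane voltage.

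All 9 genes were detected in every animal, with each above 1 FPKM. Rgs5, a brake on G protein signalling, stood highest at 44.6 ± 5.21 FPKM (SD, n = 3), followed by Tagln at 26.0 ± 5.16 and Acta2 at 17.7 ± 6.45. Vitronectin (Vtn), an adhesive glycoprotein that brain pericytes make, was next at 11.4 ± 2.75, ahead of Myh11 at 6.79 ± 2.76 and Pdgfrb at 5.99 ± 1.004. Abcc9 at 3.57 ± 0.467, Des at 2.73 ± 1.44 and Kcnj8 at 2.06 ± 0.269 were lowest. Ranges of neighbours in this order did not overlap for Rgs5 over Tagln or for Pdgfrb over Abcc9. Tagln over Acta2, Acta2 over Vtn and Vtn over Myh11 had overlapping ranges but the same order within each of the 3 animals. Myh11 and Pdgfrb, Abcc9 and Des, and Des and Kcnj8 changed places between animals, so these neighbours did not differ beyond their spread.

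**Figure D1:**
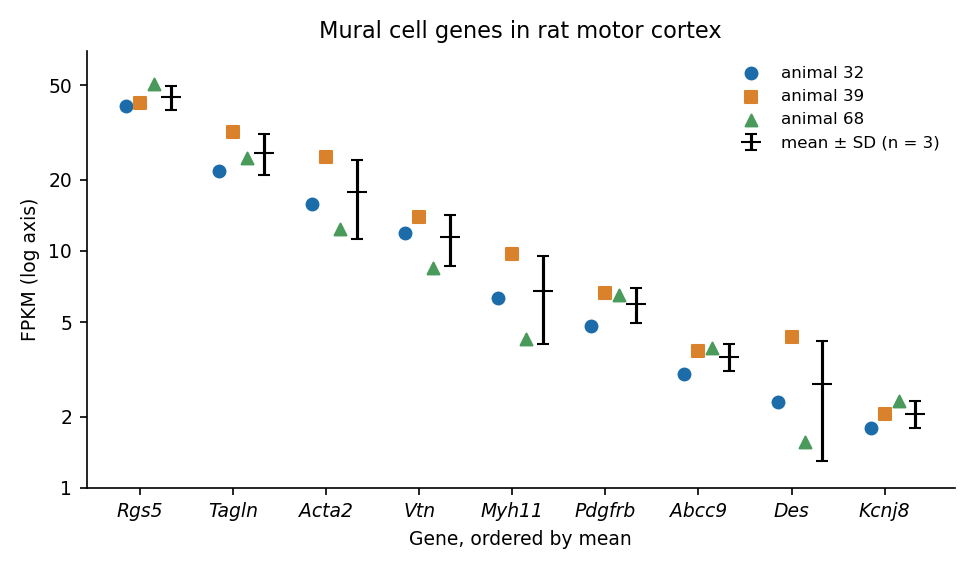
FPKM of the 9 mural cell genes in each animal on a log axis, ordered by mean, with the mean and SD of the 3 animals as a black bar. Rgs5 lies between 41.0 and 50.6 FPKM, and Acta2, Myh11 and Des spread most widely.

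Set against the other genes of the same library, the members lay on both sides of the middle. For each of the 13378 genes whose mean reached 1 FPKM, the difference from the library's median gene was tested (limma, one-sample test of log2(FPKM + 0.1), Benjamini-Hochberg adjusted over all genes). Rgs5 lay 2.10 above the median gene on the log2 scale (SE 0.09, adjusted p = 2.92e-05), Tagln 1.31 above (SE 0.12, adjusted p = 0.000393) and Acta2 0.71 above (SE 0.21, adjusted p = 0.0262). Pdgfrb (-0.79), Abcc9 (-1.51), Des (-1.99) and Kcnj8 (-2.28) lay below it, with adjusted p values of at most 0.00234 in the same limma fit. These are 3 of 9 members above, where 42.8% of all genes were called above, and 4 of 9 below, where 42.3% were. Myh11 (-0.67, adjusted p = 0.0510) and Vtn (0.12, adjusted p = 0.547) did not pass. With each gene's own spread in place of limma's moderated one, the calls for Acta2 (adjusted p = 0.171) and Des (0.0599) were lost. The call for Acta2 was also lost in limma without animal 32 (adjusted p = 0.0529) and without animal 39 (0.104). The place of the median gene depends on the filter: with a minimum mean of 5 FPKM Rgs5 lay 1.44 above it and with no filter 3.13, and every member still tested moved by as much. With the minimum of 5 FPKM Acta2 lay at 0.051 and did not pass (adjusted p = 0.836, limma). With no filter Pdgfrb lay at 0.25, on the other side, and did not pass (adjusted p = 0.132, limma). Myh11 passed without animal 39 (adjusted p = 0.0225, limma), and Vtn without animal 68 (0.0133).

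The contractile genes shared an order of animals. Acta2 measured 15.8, 24.8 and 12.3 FPKM in animals 32, 39 and 68. Myh11 measured 6.36, 9.74 and 4.27 FPKM in the same order, and Des 2.30, 4.34 and 1.56. Animal 39 was highest and animal 68 lowest for all of these genes. Animal 39 exceeded animal 68 by 2.01-fold for Acta2, 2.28-fold for Myh11 and 2.78-fold for Des. Tagln, at 21.7, 31.7 and 24.6 FPKM, was also highest in animal 39 but lowest in animal 32. Animal 39 also exceeded animal 32, by 1.57-fold for Acta2, 1.53-fold for Myh11, 1.88-fold for Des and 1.46-fold for Tagln. Each place in the order rests on 1 library. With 1 library per animal and 1 group, no test of a difference between animals was possible. In RNA from whole tissue, fewer mural cells and less RNA per cell cannot be told apart.

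The receptor, signalling and channel genes varied less and in another order. Rgs5 measured 41.0, 42.3 and 50.6 FPKM, Kcnj8 1.79, 2.05 and 2.33, and Abcc9 3.04, 3.79 and 3.89 in animals 32, 39 and 68. Animal 32 was lowest and animal 68 highest for each of them, a range of 1.23-fold to 1.299-fold. Pdgfrb, at 4.83, 6.64 and 6.49 FPKM, was lowest in animal 32 too, with animals 39 and 68 within 1.02-fold of each other. Vtn, at 11.9, 13.9 and 8.44 FPKM, followed the order of Acta2 with animal 39 highest and animal 68 lowest. On the log2 scale the SD between animals was 0.16 for Rgs5, 0.18 for Kcnj8, 0.19 for Abcc9 and 0.25 for Pdgfrb. It was 0.28 for Tagln, 0.36 for Vtn, 0.51 for Acta2, 0.59 for Myh11 and 0.72 for Des, where the median over all genes tested was 0.20. Among genes in the same decile of mean level, 92.4% had a smaller SD than Acta2, 90.9% than Myh11, 85.1% than Des, 81.3% than Vtn and 77.4% than Tagln. The share was 58.3% for Pdgfrb, 56.7% for Rgs5, 38.5% for Abcc9 and 21.9% for Kcnj8, so these genes lay near or below the middle of genes at their level.

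**Figure D2:**
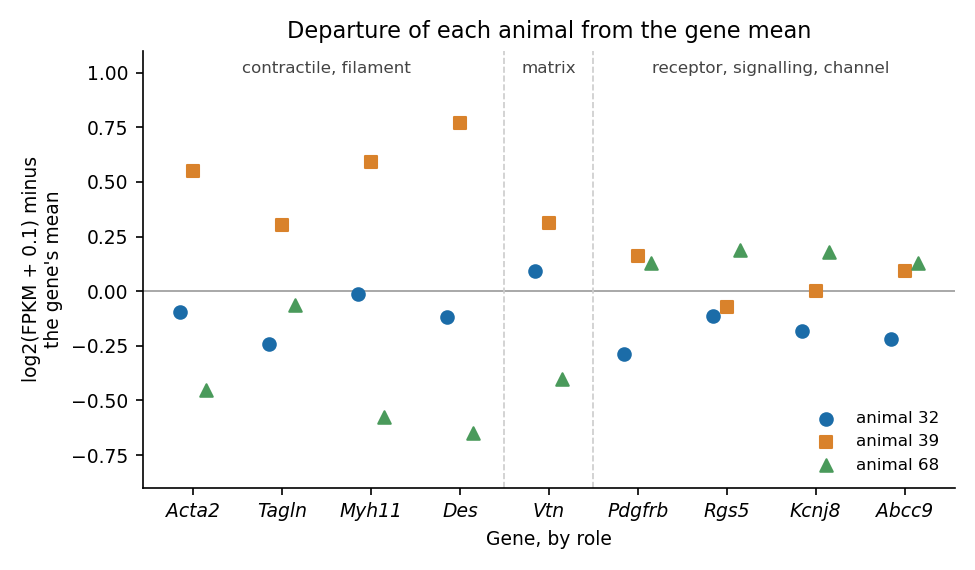
Departure of each animal's log2(FPKM + 0.1) from the gene's own mean over the 3 animals, with the genes grouped by role. Animal 39 is above the other animals for the 4 contractile and filament genes and Vtn, while Rgs5, Kcnj8 and Abcc9 are highest in animal 68.

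By highest animal, 6 of the 9 members peaked in animal 39, where 24.1% of all genes tested did, and 3 in animal 68, where 46.7% did. None peaked in animal 32, where 29.2% did. The lowest animal was 32 for 5 members (43.2% of genes), 68 for 4 (35.5%) and 39 for none (21.3%). The peak in animal 39 for Acta2, Tagln, Myh11, Des and Vtn, and that in animal 68 for Rgs5, stood under each of 4 scalings of the libraries (as deposited, equal totals, median of ratios and quantiles). The largest median shift of a library was 0.065 on the log2 scale (quantiles, animal 32), so this is a weak check for genes with wider gaps between animals. Pdgfrb peaked in animal 68 with equal totals. With quantiles, Kcnj8 and Abcc9 peaked in animal 39 with a spread between animals of 1.03-fold and 1.12-fold. Relative to Rgs5 within the same animal, Acta2 stood at 38.6, 58.7 and 24.4% in animals 32, 39 and 68. Kcnj8 stood at 4.37, 4.84 and 4.61% of Rgs5, with a narrower range between animals. The members of lowest depth had 29.7 to 41.2 fragments per kilobase for Kcnj8, 27.6 to 67.1 for Des and 50.3 to 68.8 for Abcc9.

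The promoters of Acta2 and Rgs5 are shown because these genes had opposite orders of animals 39 and 68. Each is the stretch of 250 bases before the gene's start in RefSeq, on build GRCr8, written 5′ to 3′ on the gene's strand. Acta2 lies on the minus strand at chr1:241172504-241172753 and Rgs5 on the plus strand at chr13:84380827-84381076. Capitals mark CArG-like boxes, the sites known to bind serum response factor in smooth muscle genes: a CArG box with at most 1 base of its central A/T stretch replaced by C or G, searched on both strands, which read the same for this motif.
Acta2: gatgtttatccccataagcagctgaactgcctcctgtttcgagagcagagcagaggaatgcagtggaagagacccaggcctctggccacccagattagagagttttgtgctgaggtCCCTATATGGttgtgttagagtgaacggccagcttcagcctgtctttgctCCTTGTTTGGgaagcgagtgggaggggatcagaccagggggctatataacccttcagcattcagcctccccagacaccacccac
Rgs5: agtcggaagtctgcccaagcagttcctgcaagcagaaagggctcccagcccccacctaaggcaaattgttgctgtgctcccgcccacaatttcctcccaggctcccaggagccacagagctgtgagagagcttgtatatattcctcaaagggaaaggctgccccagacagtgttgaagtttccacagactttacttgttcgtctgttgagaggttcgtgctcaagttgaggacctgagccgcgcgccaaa
The Acta2 stretch held 2 such boxes, at 134 to 125 and at 84 to 75 bases before the start, and each had 1 base that was not A or T in its centre. At least 2 boxes of this kind occurred in 0.693% of the 33469 promoters in the table, and at least 1 in 8.08%. A box without exception occurred in 1.497% and in none of the 6 members with an entry. RefSeq promoters were matched for 6 members (Acta2, Rgs5, Kcnj8, Abcc9, Des and Vtn), and Acta2 was the one with a CArG-like box in this window. Pdgfrb, Tagln and Myh11 had no entry. A match describes the sequence, and no binding was measured here.

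Members were next compared with their relatives and partners within each animal, as the log2 ratio of FPKM + 0.1. For each member taken as the reference, ratios of all other 13377 genes were fitted together in limma and adjusted over all of them. Of 23 pairs with both genes past the filter of 1 FPKM, 17 passed, with the member higher in 7 and the partner in 10. Calls were common among all genes in these fits. With Pdgfrb as the reference 57.3% were called above and 25.7% below, with Acta2 18.8% and 46.1%, and with Rgs5 9.32% and 83%. The count of pairs is therefore no result about the pairs as a set. The fits share the reference's own variation across all genes. For 6 of the 9 references limma then treated the spread as known, which makes p too small. The adjusted p given below is therefore that from each ratio's own spread in limma, without moderation, a choice made after the first fits were seen. By own spread 6 pairs passed, with no share of all genes computed for comparison. The shares of genes called above or below a reference, given below, come from the moderated fits, so they and the adjusted p rest on different tests.

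The channel subunits Kcnj8 and Abcc9 lie next to each other on chromosome 4 of Rnor_6.0, at 176782498 to 176789304 and 176805431 to 176922424, both on the minus strand, with 16.1 kb between them. Abcc9 exceeded Kcnj8 1.70-fold (higher in 3 of 3 animals, adjusted p = 0.00713, limma), where 81.8% of all genes were called above Kcnj8 and 3.1% below. The log2 ratio varied little between animals (SD 0.08). Their relatives Kcnj11 and Abcc8 form the ATP-sensitive channel of neurons and pancreatic beta cells. Kcnj11 measured 18.5, 17.7 and 9.12 FPKM in animals 32, 39 and 68, and Abcc8 14.9, 14.4 and 8.93, so both were lowest in animal 68. Kcnj11 exceeded Kcnj8 6.77-fold (adjusted p = 0.0311) and Abcc8 exceeded Abcc9 3.42-fold (adjusted p = 0.0445, limma), each in 3 of 3 animals. Of all genes, 71.9% were called above Abcc9 and 14.6% below. The neuronal genes Snap25, Syt1, Slc17a7, Gad1 and Rbfox3 summed to 2312, 2020 and 1619 FPKM in the same order of animals, and their part in the lower levels of Kcnj11 and Abcc8 in animal 68 was not tested.

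Around the receptor, the ligand gene Pdgfb measured 9.32, 10.4 and 10.2 FPKM and exceeded Pdgfrb 1.67-fold (3 of 3 animals, adjusted p = 0.0354, limma), where 57.3% of genes were called above Pdgfrb and 25.7% below. Pdgfra, the relative found on oligodendrocyte precursors and fibroblasts, measured 10.03, 14.2 and 23.3 FPKM, 2.49-fold above Pdgfrb (adjusted p = 0.0573 from its own spread, 2.11e-09 with moderation in limma). The proteoglycan gene Cspg4, shared by pericytes and oligodendrocyte precursors, was lower than Pdgfrb in 3 of 3 animals at 2.93, 4.49 and 5.24 FPKM (adjusted p = 0.0704 in limma). Its moderated call (0.0295) was lost without animal 32 (0.0830) and without animal 39 (0.162). Of the endothelial and mural signalling list (PDGF, angiopoietin, TGF-beta and Notch genes), 19 of 21 genes passed the filter, 2 lay above the median gene and 11 below (42.8% and 42.3% of all genes did), with a median of -0.70 on the log2 scale where that of all genes was -0.01. Highest were the sphingosine receptor gene S1pr1 at 35.9 ± 10.6 FPKM, the adhesion gene Cdh2 at 31.6 ± 3.67, Pdgfra at 15.8 ± 6.76 and the endothelin receptor gene Ednrb at 14.5 ± 11.2, which astrocytes also express.

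Rgs5 exceeded its relative Rgs16 8.84-fold (3 of 3 animals, adjusted p = 0.00480, limma), where 83% of genes were called below Rgs5 and 9.32% above. Rgs16 stood at 4.94 ± 0.247 FPKM. The neuronal relative Rgs4 measured 293, 160 and 56.4 FPKM in animals 32, 39 and 68, above Rgs5 in every animal, with a log2 ratio of Rgs5 to Rgs4 from -2.83 in animal 32 to -0.16 in animal 68 (adjusted p = 0.185 in limma, 0.0112 with moderation). The mean log2 ratio was -1.63, and it was -1.03 without animal 32 and -2.37 without animal 68. Rgs5 and the endothelial tight junction gene Cldn5, at 38.5, 38.5 and 29.6 FPKM, did not differ beyond their spread (log2 ratio 0.33, adjusted p = 0.284 in limma, 0.101 with moderation), though Rgs5 was the higher in 3 of 3 animals.

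Acta2 belongs to a family of near-identical actin genes, so fragments may be assigned among them with error. Beta-actin (Actb) stood at 1008 ± 125 FPKM, 58.9-fold above Acta2 in limma's estimate (3 of 3 animals, adjusted p = 0.0849 from its own spread). Where Acta2 was the reference, 18.8% of genes were called above it and 46.1% below. Gamma-actin (Actg1) was listed at 22.0 ± 1.45 FPKM, close to Acta2 (log2 ratio -0.37 ± 0.59 (SD, n = 3), adjusted p = 0.457 in limma). Skeletal muscle actin (Acta1) measured 9.93, 8.60 and 4.89 FPKM, below Acta2 in 3 of 3 animals (adjusted p = 0.103 in limma). Of the other skeletal and heart muscle genes found, none reached a mean of 1 FPKM: Myh1 measured 0.296 to 0.632, Tnni2 at most 0.0413, and Ckm was listed at 0 in every library. Enteric smooth muscle actin (Actg2) was at 0.251 ± 0.233 FPKM.

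Myh11, Tagln and Des were compared with the non-muscle forms of their proteins. Non-muscle myosin Myh10 stood at 70.7 ± 10.8 FPKM, 10.8-fold above Myh11 (3 of 3 animals, adjusted p = 0.0934 in limma). Of all genes, 42.1% were called above Myh11 and 17% below. Myh14, at 5.91, 8.31 and 14.7 FPKM, was below Myh11 in animals 32 and 39 and above it in animal 68. Myh9 was listed at 0 in all 3 libraries, a value that can be a failed estimate. Acta2 exceeded Myh11 2.61-fold with a log2 ratio that varied by an SD of 0.11 between animals (adjusted p = 0.0849 in limma, 0.00312 with moderation and 0.282 with moderation but without animal 32). Tagln exceeded Tagln2, which is found in many cell types, 1.66-fold (3 of 3 animals, adjusted p = 0.0263, limma), where 67.2% of genes were called below Tagln and 15.7% above. With moderation that call was lost without animal 68 (adjusted p = 0.0866, limma). The neuronal relative Tagln3 was at 0.570 ± 0.142 FPKM.

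Des was the lowest filament gene compared, apart from its partner synemin. Vimentin (Vim), found in endothelium, astrocytes and mural cells, measured 36.4, 50.8 and 64.2 FPKM, 18.9-fold above Des (adjusted p = 0.0653 in limma). The astrocyte filament gene Gfap measured 97.3, 148 and 352 FPKM, 65.9-fold above Des (adjusted p = 0.0660). The log2 ratio of Des to Gfap was -6.04, and -5.20 without animal 68. Both were highest in animal 68, where Des was lowest. Where Des was the reference, 65% of genes were called above it and 0.202% below, though 15.7% of genes tested had a lower mean. Synemin (Synm) measured 1.39, 2.66 and 3.83 FPKM, below Des in animals 32 and 39 and above it in animal 68.

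Vitronectin is read by cells through integrins that contain the alpha V chain. Its receptor gene Itgav was higher than Vtn in 3 of 3 animals at 16.4, 14.6 and 14.2 FPKM, but the ratio did not pass (adjusted p = 0.215 in limma). Itgb5 measured 4.48, 5.51 and 13.0 FPKM and was below Vtn in animals 32 and 39 but above it in animal 68. Itgb3 measured 0.405, 0.108 and 0.380 FPKM. The fibronectin gene Fn1 measured 5.67, 6.29 and 7.93 FPKM, below Vtn in every animal (adjusted p = 0.205 from its own spread in limma, 0.0309 with moderation). The moderated calls of Vtn over Fn1 and over Itgb5 were each lost in limma without animal 32 (adjusted p 0.484 and 0.700) and without animal 39 (0.350 and 0.533). Where Vtn was the reference, 38.4% of genes were called below it and 34% above.

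**Figure D3:**
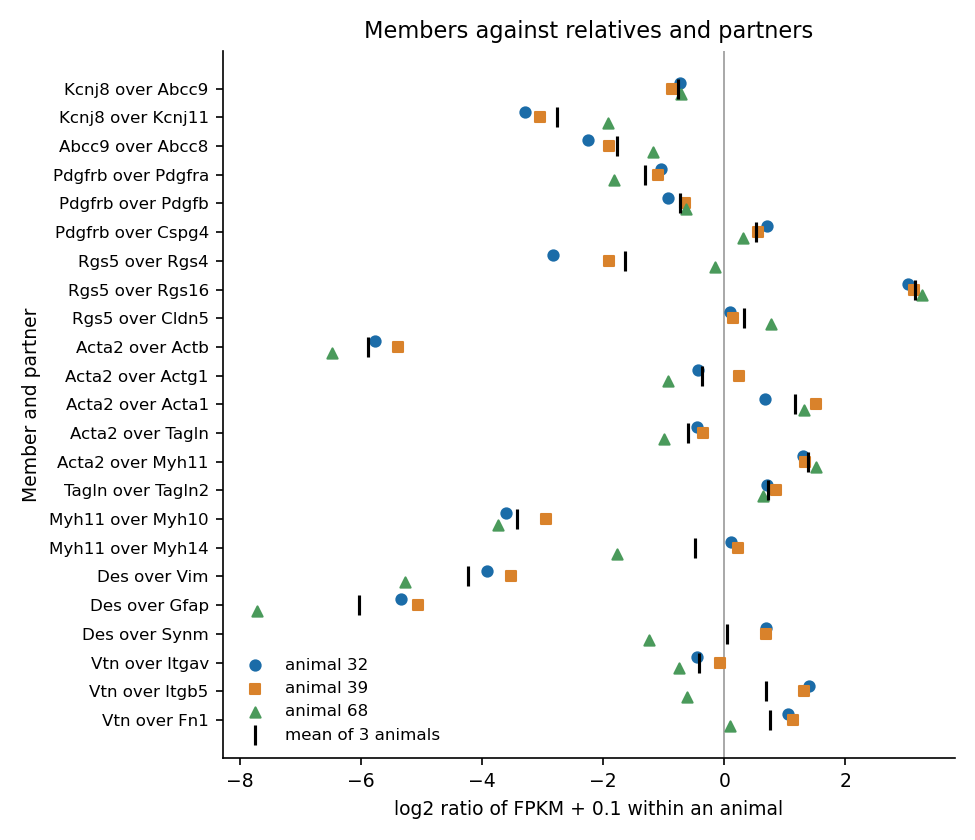
log2 ratio of each member to a relative or partner within each animal, for the 23 pairs tested, with the mean of the 3 animals as a black tick. Ratios of Kcnj8 to Abcc9, Rgs5 to Rgs16 and Tagln to Tagln2 nearly coincide between animals, whereas that of Rgs5 to Rgs4 spreads widely.

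Other genes of mural cells were lower than most members. Of 23 further mural genes listed, 22 were found and 19 passed the filter, of which 18 lay below the median gene and 1, the adhesion gene Mcam, above it (26.9 ± 5.82 FPKM, limma). Their median was -2.29 on the log2 scale against the median gene, and -0.67 for the 9 members. Notch3, the receptor that maintains arterial smooth muscle, stood at 4.73 ± 0.665 FPKM, the muscle gene Mustn1 at 4.29 ± 1.17 and Cspg4 at 4.22 ± 1.18. Over all genes tested, 42.3% lay below and 42.8% above. By animal, 8 of the 19 peaked in animal 39 (24.1% of all genes) and 8 in animal 68 (46.7%), the latter near the share of all genes.

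Of 25 listed genes of the contractile apparatus, 24 were found and 19 passed the filter. Among these, 9 lay above the median gene, 6 below and 4 did not pass (limma). Highest were calponin 3 (Cnn3, 59.9 ± 27.8 FPKM), the kinase Rock2 (45.5 ± 3.97), tropomyosin Tpm1 (40.1 ± 6.36) and alpha-actinin Actn1 (27.4 ± 6.39), all of which are also made outside muscle. These counts are near the shares of all genes, 42.8% above and 42.3% below. In this list 9 of 19 genes peaked in animal 39 (24.1% of all genes did) and 7 in animal 68 (46.7%). Animal 32 was lowest for 12 (43.2%), animal 68 for 7 (35.5%) and animal 39 for none (21.3%), so most of the list did not have the order seen for Acta2. Myl9, the light chain of smooth muscle myosin, measured 18.2, 24.2 and 15.1 FPKM, and Tpm2 8.80, 11.1 and 5.62, the order seen for Acta2. Cnn1, restricted to smooth muscle, measured 0.443, 1.03 and 0.453 FPKM with animal 39 highest. Cnn3 (38.1, 50.4 and 91.2), Tpm1 (44.6, 42.8 and 32.8) and Actn1 (33.4, 28.1 and 20.7) had other orders. Smtn (2.06, 2.52 and 2.28 FPKM) and Lmod1 (1.92, 2.47 and 2.24), also genes of smooth muscle, were highest in animal 39 but lowest in animal 32. Cald1, Cnn2, Itga8, Cacna1c and Ppp1r14a were lowest in animal 32 and highest in animal 68. Myl9, Tpm2, Mylk, Cnn1 and the genes of these last 2 orders were named after their values were seen. The smooth muscle regulators Myocd and Kcnmb1 stayed at or below 0.216 FPKM.

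Markers of other cell types also differed between the animals. The members summed to 109, 139 and 114 FPKM in animals 32, 39 and 68, and 14 endothelial genes found of 15 listed to 161, 154 and 144. The endothelial sum was highest in animal 32, and 5 of its 14 genes peaked in animal 39 (24.1% of all genes did). The choroid plexus list (9 of 10 found) summed to 11.8, 638 and 7619 FPKM, most of it Ttr, and was highest in animal 68. Fibroblast and meningeal genes (12 listed and found, with Col1a2 and Ogn at 0 in every library) summed to 54.1, 64.8 and 130.2. Of the 10 fibroblast and meningeal genes past the filter, 5 peaked in animal 39 (24.1% of all genes) and 5 in animal 68 (46.7%). The meningeal transporter gene Slc6a13, at 3.22, 4.84 and 2.16 FPKM, had the order of animals seen for Acta2. Aldh1a2, Cemip and Slc22a6 of this list had it too, so 4 of the 10 did, with no share of all genes with this order computed for comparison. The higher sum in animal 68 came largely from Igf2 (11.3, 17.1 and 65.2 FPKM) and Fmod (6.03, 5.27 and 24.3). Apart from Slc6a13, these genes were named after their values were seen. The skeletal and heart muscle list summed to 11.4, 10.2 and 7.36, most of it Acta1. The 4 red blood cell genes summed to 639, 859 and 831, and the 4 astrocyte genes to 199, 351 and 706. Red blood cell genes were lowest in animal 32, as were Rgs5, Kcnj8, Abcc9, Pdgfrb and Tagln, and 43.2% of all genes tested. With quantile scaling Kcnj8 was lowest in animal 68 instead. The part of these cell types in the members' differences between animals was not tested.

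**Figure D4:**
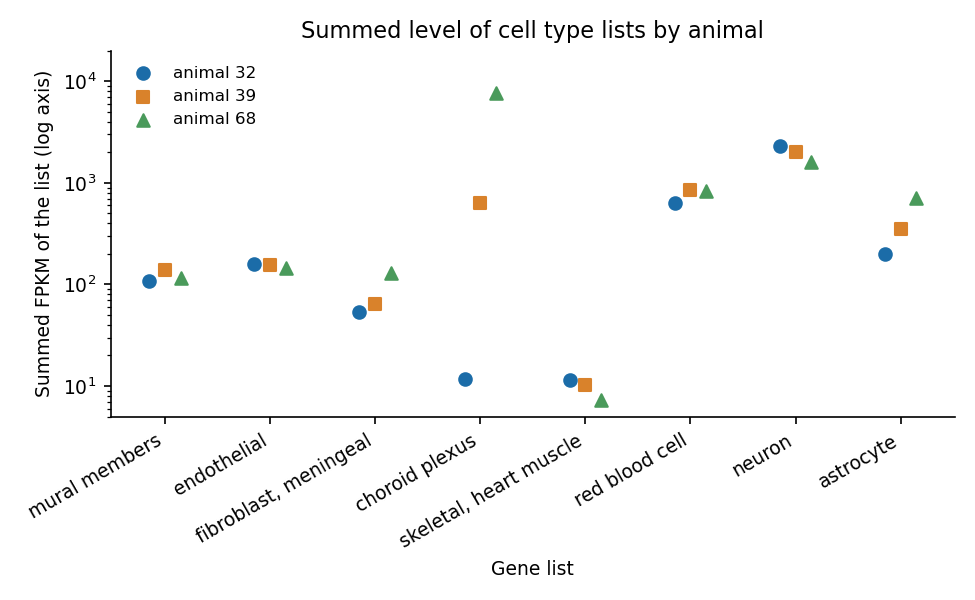
Summed FPKM of each cell type list in each animal, on a log axis. The mural members (109 to 139) and the endothelial list (144 to 161) vary little beside the choroid plexus list, which runs from 11.8 in animal 32 to 7619 in animal 68.

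The genes with the pattern most like the members' mean profile were sought by the root mean square distance of centred log2 values over the 3 animals. The closest were Prdm11, Syt10, Il1rapl1, Lamc3 and P2rx4, at distances of 0.0061 to 0.010. These genes were picked for the smallest distance, so their closeness is no measure of the members, which lay 0.0885 to 0.387 from the mean profile. Between pairs of members the distance ran from 0.056 for Rgs5 and Kcnj8, 0.058 for Pdgfrb and Abcc9 and 0.063 for Kcnj8 and Abcc9 to 0.684 for Rgs5 and Des. With only 3 animals many genes share a pattern: 352 of the 13378 genes (2.63%) lay within 0.1.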

How the data were processed

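The libraries were made from purified, fragmented mRNA, per the labels' protocols. The authors computed FPKM with a Perl script after counting fragments on genes, per the labels' design text, and these deposited values were used as they stand. Per the submitters' processing notes, the tools were HISAT2 2.0.4 and StringTie 1.3.0 and the build Rnor_6.0, with no role given. Annotation release and use of strand are not stated, so overlapping genes and close copies such as the actins are uncertain. Depth was worked out from loci of up to 400 bases, where 85.0, 86.6 and 82.0% of the values lay within 0.02 of a whole fragment, partly by construction.

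Values were analysed as log2(FPKM + 0.1), which understates ratios of low genes. The filter kept genes whose mean reached 1 FPKM. limma 3.58.1 (R 4.3.3) ran one-sample tests with a trended prior (2.89 prior degrees of freedom for levels) and a threshold of 0.05. P-values cover only the spread between these 3 animals. An exact test of 3 animals was not used. Both limma tests were also run on simulated data with all unchanged genes at the same level, unlike the real genes. A limit on false calls was required of the level test only, so the run gives no support to p-values of the ratios. Python 3.11.15, pandas 2.3.3 and numpy 2.4.6 were used for the rest. The members, lists and pairs were chosen with earlier results of these data known. Named are all members and partners, the 4 highest genes of each list that is described gene by gene, defining markers, and the 5 genes nearest in pattern. Other genes were named after their values were seen, as stated where they occur. Of the lists, Pecam1, Myl6, Foxf2, Hspg2, Otx2, Myh2 and Myh4 matched no symbol, nor did the partner Nes. Promoters came from RefSeq (GRCr8), used for sequence only.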

Additional observations from a re-analysis of the deposited data

How the results depend on the processing

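Of the counts, the 3 members above the median gene ranged from 2 to 4 and the 4 below from 3 to 5. The alternatives run for them were pseudocount, filter, prior, own spread and each animal left out. The genes behind these counts also changed. With a filter at a mean of 5 FPKM those below were Pdgfrb, Myh11 and Vtn, and Abcc9, Des and Kcnj8 were no longer tested. The median member level of 7.53 FPKM stayed within 6.42 to 8.11 under scaling and with each animal left out. The 17 pairs that passed became 8 with a filter at a mean of 5 FPKM, which leaves fewer pairs to test, and 6 with each ratio's own spread. With the partner as the reference of the fit, 15 passed, and with each animal left out 12 to 16. The count of 3 members highest in animal 68 became 1 with quantile normalisation. Signs turned for results that moved with the reference point or with 1 animal. Without a filter, which lowers the median gene, Pdgfrb lay at 0.25 and Myh11 at 0.36. With a filter at 5 FPKM, Vtn lay at -0.54. With each animal left out, Vtn ranged from -0.037 (without 39) to 0.35, Myh11 over Myh14 from -0.83 to 0.16 (without 68), and Des over Synm from -0.28 (without 32, and -0.28 without 39) to 0.69. The causes were not tested. Acta2 over Actg1 and over Tagln did not pass by own spread with all animals (adjusted p 0.457 and 0.154, limma). With moderation, which is not the test adopted above for the ratios, they passed without animal 39 (adjusted p 0.0456 and 0.0342, limma). Acta2 over Tagln also passed with moderation and Tagln as the reference (0.0216, limma). No pairing of samples between groups was possible because all 3 animals form 1 group, while the ratios compare 2 genes within each animal. Depth limits Des and Kcnj8 most, and it covers counting error only.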

Other observations

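The vascular basement membrane, which mural cells and endothelium build together, was led by the collagen genes Col4a2 (18.8 ± 2.34 FPKM) and Col4a1 (12.2 ± 1.80), followed by the laminin genes Lamb2 (11.9 ± 4.82) and Lamc1 (9.97 ± 0.566). Of 11 genes listed, 10 were found and passed the filter, of which 1 (Col4a2) lay above the median gene of its library, 5 below and 4 did not pass (limma), where 42.8% and 42.3% of all genes lay above and below. By value, 6 of the 10 were highest in animal 68 (46.7% of all genes) and 7 lowest in animal 32 (43.2%). Among genes that bind vitronectin or work beside it, Serpine2 (45.6 ± 14.6 FPKM), Itgb1 (26.0 ± 8.76) and Itgav (15.1 ± 1.16) lay above the median gene, Itgb5 (7.68 ± 4.67) did not pass, and the other 5 of the 9 listed had means under 1 FPKM.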
